A study of Homo sapiens with 8 samples.

Results

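Of the 20033 protein-coding genes with an annotated 5′ end, 33 carry a symbol that starts with TNFSF or TNFRSF followed by a number, and these tumour necrosis factor (TNF) superfamily genes were the members described here. The rule picked them by symbol and used no measured value, although the gene family itself was chosen with earlier results of these data known. The TNFSF genes encode ligands, 12 in all when the readthrough gene TNFSF12-TNFSF13 is included, and the 21 TNFRSF genes encode receptors. TNFSF12-TNFSF13 has no MANE Select transcript, and the 5′ end of its Ensembl canonical transcript lies 41 bp from that of TNFSF12, so the pair was counted as 1 promoter. This left 11 ligand and 21 receptor promoters.

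The libraries were chromatin immunoprecipitations of H3K4me3, the histone modification that marks the start of transcribed genes, from U2OS, a human osteosarcoma line. There were 3 wild-type (WT) clones and 3 knockout (KO) clones of ZBTB48, a telomere-binding zinc finger protein that also acts as a transcription factor. All 6 clones had received interferon gamma (IFNγ) at 250 U/ml, for 24 h by the sample records, and each clone gave 1 library. A figure legend of the study gives a longer treatment for its H3K4me3 tracks. Because no clone without IFNγ was among the samples, no effect of IFNγ could be measured, and because each library is a clone, a p-value over libraries measures the spread between clones.

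Superfamily ligands are mostly trimeric membrane proteins, some of which are shed, and they cluster their receptors on the target cell. Receptors with a death domain can recruit the caspase machinery, receptors with TRAF-binding tails signal to NF-κB and MAP kinases, and decoy receptors bind a ligand without passing on a full signal. Many ligands are products of activated lymphocytes or myeloid cells, while several receptors are found on most cell types, mesenchymal cells included.

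The promoters that the results turn on differ widely in sequence. RefSeq promoter sequences (GRCh38.p14), from 250 bases before to 50 after an annotated start, were matched by symbol for 21 of the 33 members, and 5 promoters of 4 genes are shown with each CpG dinucleotide in capitals. TNFRSF1A (chr12:6342027-6342326, minus strand, 4 CpG) carried a peak in every library although it is poor in CpG. TNFSF9 (chr19:6530776-6531075, plus strand, 27 CpG) was the ligand with the longest covered length. TNFSF10 (chr3:172523381-172523680, minus strand, 3 CpG) carried no peak in any library. TNFRSF19 is shown at both of its start regions, the MANE Select start (chr13:23570162-23570461, plus strand, 4 CpG) and a second annotated start 8948 bp downstream (chr13:23579110-23579409, plus strand, 27 CpG).
TNFRSF1A: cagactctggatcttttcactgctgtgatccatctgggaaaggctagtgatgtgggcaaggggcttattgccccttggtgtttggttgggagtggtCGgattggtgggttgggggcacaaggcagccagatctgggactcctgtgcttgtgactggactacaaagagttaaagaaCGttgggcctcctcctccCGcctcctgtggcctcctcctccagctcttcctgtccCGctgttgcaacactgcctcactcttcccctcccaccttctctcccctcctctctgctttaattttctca
TNFSF9: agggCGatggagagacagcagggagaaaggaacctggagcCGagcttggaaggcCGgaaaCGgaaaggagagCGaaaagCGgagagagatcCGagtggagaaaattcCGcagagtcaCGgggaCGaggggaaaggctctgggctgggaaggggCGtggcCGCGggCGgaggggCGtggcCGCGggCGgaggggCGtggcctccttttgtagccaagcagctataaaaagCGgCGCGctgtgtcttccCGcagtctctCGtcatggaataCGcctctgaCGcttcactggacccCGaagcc
TNFSF10: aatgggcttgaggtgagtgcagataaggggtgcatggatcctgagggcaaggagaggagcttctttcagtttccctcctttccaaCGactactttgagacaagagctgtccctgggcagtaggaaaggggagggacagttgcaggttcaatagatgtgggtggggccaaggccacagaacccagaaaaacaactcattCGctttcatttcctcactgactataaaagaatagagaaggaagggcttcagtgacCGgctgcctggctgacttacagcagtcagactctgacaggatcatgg
TNFRSF19 MANE Select start: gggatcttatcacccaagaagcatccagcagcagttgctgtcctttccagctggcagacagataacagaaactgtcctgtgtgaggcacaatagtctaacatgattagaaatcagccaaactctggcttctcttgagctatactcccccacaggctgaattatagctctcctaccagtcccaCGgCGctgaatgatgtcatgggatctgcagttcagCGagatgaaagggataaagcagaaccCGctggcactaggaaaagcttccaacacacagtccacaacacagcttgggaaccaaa
TNFRSF19 second start: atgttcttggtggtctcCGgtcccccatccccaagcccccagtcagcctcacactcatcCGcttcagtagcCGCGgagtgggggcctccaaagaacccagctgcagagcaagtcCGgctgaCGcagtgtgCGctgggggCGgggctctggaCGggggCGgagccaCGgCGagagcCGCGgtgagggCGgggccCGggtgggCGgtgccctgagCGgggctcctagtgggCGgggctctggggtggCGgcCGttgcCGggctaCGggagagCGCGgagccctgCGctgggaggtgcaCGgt

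The 6 lists held 21712 to 26370 peaks. They carry no read counts, so the depth of a library is unknown here, and a promoter without a peak may still carry the mark below what that depth allowed to be called. WT replicates 1 and 2 stood apart from the other 4 lists, with median peak widths of 2297 and 2353 bp against 1275 to 1487 bp, and median fold enrichments over background of 13.4 and 14.0 against 4.19 to 4.65. WT replicate 3 resembled the 3 KO lists in both measures, and the genotypes are therefore compared a second time with WT replicate 3 as the sole WT library. The ZBTB48 promoter itself was called in 6 of 6 libraries, which does not check the knockout, since the edit need not remove the mark. Of the markers used to check the cell line, 5 of 7 osteoblast and mesenchymal genes were called in all 6 libraries (not COL1A2 and TWIST1). Of the 5 epithelial genes, 2 were called in all 6 libraries and ESRP1 in 5. Over all protein-coding promoters 65.1% were called in all 6 libraries, so the osteoblast and mesenchymal count is near the general share and shows little about lineage. The 6 blood cell genes had a peak in 0 libraries, beside 30.3% of all promoters.

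A promoter counted as called where a peak came within 1 kb of its 5′ end in either direction, and its covered length was the total peak length inside the 6001 bp that reach 3 kb to each side. By the first measure the 32 TNFSF and TNFRSF promoters were marked less often than protein-coding genes as a whole. Only 10 of 32 promoters (31.25%) were called in all 6 libraries, where 65.1% of all protein-coding promoters were. A further 6 (18.75%) were called in 1 to 5 libraries, against 4.59% of all promoters, and 16 (50%) were called in none, against 30.3%. Calls that differed between libraries were thus a larger share of these 32 promoters than of all promoters, and they are taken up one by one below. Superfamily genes with other names, counted apart below, had 3 of 7 ligands and 6 of 8 receptors called in all 6 libraries.

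**Figure D1:**
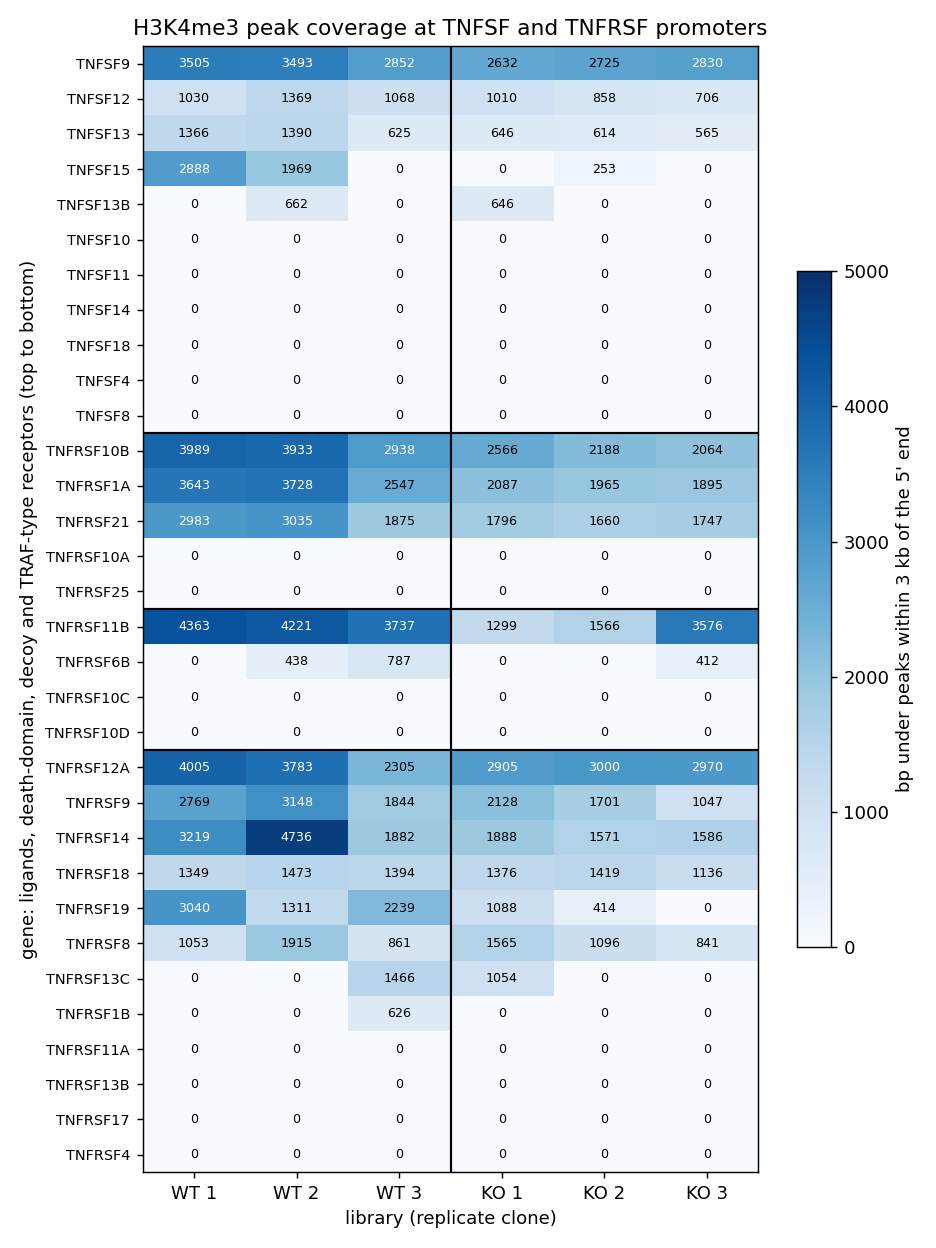
Covered length in bp within 3 kb of the 5′ end (number and shade) for the 32 promoters in rows and the 6 libraries in columns, 3 WT to the left and 3 KO to the right of the vertical line. Rows are grouped as ligands, death-domain, decoy and TRAF-type receptors. A few rows carry long coverage in every library and 14 rows are at 0 throughout, while TNFSF15, TNFSF13B, TNFRSF6B, TNFRSF19, TNFRSF13C and TNFRSF1B are filled in some libraries only.

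On average, receptors were called more often than ligands. Peaks marked 9, 9 and 11 of the 21 receptor promoters in WT replicates 1, 2 and 3, and 10, 9 and 8 in KO replicates 1, 2 and 3. The 11 ligand promoters had 3, 5 and 2 calls in the WT libraries and 3, 3 and 2 in the KO libraries. Averaged over the 6 libraries, 44.4% of receptors, 27.3% of ligands and 67.2% of all promoters were called. The receptor share exceeded the ligand share by 17.2 percentage points on average, but in WT replicate 2 the order was turned, with 45.5% of ligands and 42.9% of receptors called. The members are few and were chosen with earlier results known, so the difference is a description and carries no test.

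**Figure D2:**
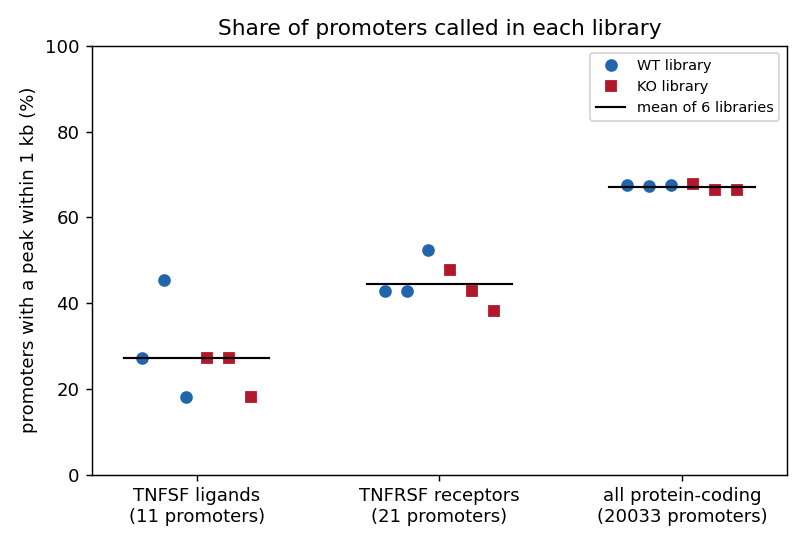
Percent of promoters with a peak within 1 kb in each library, for 11 ligand, 21 receptor and 20033 protein-coding promoters. Circles are WT libraries, squares are KO libraries and the line is the mean of 6. Ligands lie between 18.2% and 45.5%, receptors between 38.1% and 52.4%, and all promoters close to 67.2%.

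Receptors were also counted by structural type. Of the 5 death-domain receptors, 3 were called in 6 libraries and 2 in none. Of the 4 decoy receptors, 1 was called in 6 and 3 in none. The 12 TRAF-type receptors divided into 4 called in 6 libraries, 3 called in some and 5 called in none. With classes of this size no share was read as particular to a type.

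Of the ligands, TNFSF9, which stimulates T cells through TNFRSF9, had the longest coverage. It was covered over 3505, 3493 and 2852 bp in WT replicates 1, 2 and 3, and over 2632, 2725 and 2830 bp in KO replicates 1, 2 and 3. The 3 WT values lay above the 3 KO values, although WT replicate 3 exceeded KO replicate 3 by little. The means were 3283 ± 374 bp in WT and 2729 ± 99.1 bp in KO (SD, n = 3 each, two-sided exact permutation p = 0.1, the smallest that 3 libraries against 3 allow). Set against the other covered promoters of the same list, TNFSF9 stood lower in the 2 broad lists, at percentiles 57.2 and 60.0, than in the other 4, at 84.4 to 94.6.

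TNFSF12 (TWEAK), a ligand of wide expression, carried a short peak over its start in all 6 libraries. Its covered length was 1030, 1369 and 1068 bp in the WT libraries and 1010, 858 and 706 bp in the KO libraries, at percentiles of 3.7 to 5.7 in every list. The WT and KO values did not overlap, and the closest were 1030 bp in WT replicate 1 and 1010 bp in KO replicate 1. Means were 1156 ± 186 bp and 858 ± 152 bp (n = 3 each, exact permutation p = 0.1).

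TNFSF13 (APRIL), a survival factor of B lineage cells, starts 9692 bp downstream of TNFSF12 and was called in WT replicate 2 only, through a peak of 368 bp that ended 200 bp before the 5′ end. The 3 kb window held 1366, 1390 and 625 bp of coverage in the WT libraries and 646, 614 and 565 bp in the KO libraries. Most of this belonged to a second peak that began 1635 to 2436 bp downstream of the start and covers the promoter of the neighbouring gene SENP3, so the covered length of TNFSF13 is not a measure of its own promoter.

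TNFSF13B (BAFF), another B cell survival factor, had peaks of 662 bp in WT replicate 2 and 646 bp in KO replicate 1 and none in the other 4 libraries. Both began after the 5′ end, at 107 and 263 bp downstream. The call was therefore found in 1 clone of each genotype.

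TNFSF15 (TL1A), a ligand of endothelial and myeloid cells, was covered over 2888 bp in WT replicate 1 and 1969 bp in WT replicate 2, while WT replicate 3 had no coverage. In KO replicate 2 a peak of 253 bp with a −log10 q of 1.65 lay downstream of the start, and KO replicates 1 and 3 had none. The 2 long peaks were in the 2 broad lists, and their fold enrichments ranked at percentiles 22.5 and 19.2 of those lists. WT and KO overlapped at 0 bp.

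The remaining 6 ligands, TNFSF4, TNFSF8, TNFSF10, TNFSF11, TNFSF14 and TNFSF18, were not called in any library. The nearest peak to TNFSF10 (TRAIL), which induces apoptosis, was 39226 to 45830 bp away. For TNFSF11 (RANKL), the osteoclast differentiation factor that osteoblast lineage cells can make, it was 300370 to 301107 bp away. TNFSF8, the ligand of TNFRSF8, had a second annotated start 26283 bp downstream that was called in WT replicate 2 alone, with 3120 bp of coverage.

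The 3 marked death-domain receptors had a peak over the 5′ end in all 6 libraries. TNFRSF1A, the main receptor for TNF itself, was covered over 3643, 3728 and 2547 bp in the WT libraries and 2087, 1965 and 1895 bp in the KO libraries. In the 2 broad lists its peak was 8723 and 7749 bp wide and ran beyond the window, while in the other 4 it began 63 to 172 bp before the 5′ end and ended 1822 to 2374 bp after it. WT was above KO in all libraries, with WT replicate 3 closest to the KO values (3306 ± 659 bp in WT and 1982 ± 97.2 bp in KO, n = 3 each, exact permutation p = 0.1).

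TNFRSF10B, a TRAIL receptor that triggers apoptosis, was covered over 3989, 3933 and 2938 bp in the WT libraries and 2566, 2188 and 2064 bp in the KO libraries. All 3 WT libraries again exceeded all 3 KO libraries (means of 3620 ± 591 and 2273 ± 261 bp, n = 3 each, exact permutation p = 0.1). The other TRAIL receptors lie in the same cluster on chromosome 8, with TNFRSF10C, TNFRSF10D and TNFRSF10A starting 33890, 94996 and 156071 bp from TNFRSF10B. None of these 3 was called in any library, and the nearest peak to TNFRSF10A was 5157 to 5575 bp from its start.

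TNFRSF21 (death receptor of neurons and T cells) was covered over 2983, 3035 and 1875 bp in the WT libraries and 1796, 1660 and 1747 bp in the KO libraries. The lowest WT and the highest KO value were 1875 and 1796 bp, and means were 2631 ± 655 and 1734 ± 68.9 bp (n = 3 each, exact permutation p = 0.1). The fold enrichments of its peaks lay at percentiles 60.6 to 94.7 of their lists. TNFRSF25, the receptor for TNFSF15, was called in none, with its nearest peak 17016 to 18870 bp away. It lies 113.8 kb from ZBTB48 on chromosome 1.

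Among the decoy receptors, only TNFRSF11B (osteoprotegerin), which osteoblasts secrete to bind TNFSF11, was marked. Its coverage was 4363, 4221 and 3737 bp in the WT libraries and 1299, 1566 and 3576 bp in the KO libraries. KO replicates 1 and 2 had peaks that ended 572 and 990 bp after the start, while the peak of KO replicate 3 ran to 3101 bp, close to the 3106 bp of WT replicate 3. WT was above KO in all libraries, with means of 4107 ± 328 and 2147 ± 1245 bp (n = 3 each, exact permutation p = 0.1), and the 3 KO clones differed more among themselves than WT replicate 3 did from KO replicate 3. The long peaks of WT replicate 3 and KO replicate 3 had low fold enrichments averaged over their length, at percentile 2.67 and 2.72 of their lists, against 68.7 and 67.3 for the short peaks of KO replicates 1 and 2.

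TNFRSF6B, a soluble decoy for TNFSF14 and TNFSF15, had no call, and its window held only peaks more than 2.1 kb downstream, with 438 bp of coverage in WT replicate 2, 787 bp in WT replicate 3 and 412 bp in KO replicate 3.

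TNFRSF12A, the receptor for TNFSF12, was the TRAF-type receptor with the longest coverage. Its covered length was 4005, 3783 and 2305 bp in the WT libraries and 2905, 3000 and 2970 bp in the KO libraries. WT replicate 3 lay 600 bp below the lowest KO library, and 0.455% of the 14281 promoters covered in these 4 lists had a KO lead of at least 500 bp. Means were 3364 ± 924 and 2958 ± 48.6 bp (n = 3 each, exact permutation p = 0.4). In KO replicates 2 and 3 the peak began 1 and 31 bp after the 5′ end and ran to 4268 and 3930 bp, whereas in WT replicate 3 and KO replicate 1 it ended at 1967 and 1879 bp. The promoters of neighbouring genes lie inside the longer peaks, so the width at TNFRSF12A is not that of 1 promoter.

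TNFRSF19, a receptor of stem and mesenchymal cells also known as TROY, ranged from a broad peak to none between clones. At its MANE Select start it was covered over 3040, 1311 and 2239 bp in the WT libraries and 1088, 414 and 0 bp in the KO libraries. The WT libraries all exceeded the KO libraries, with means of 2197 ± 865 and 501 ± 549 bp (n = 3 each, exact permutation p = 0.1), and WT replicate 3 exceeded the highest KO library by 1151 bp. That lead rested on a peak with a −log10 q of 2.95. With peaks of at least 3 on that scale WT replicate 3 had no call, the number of libraries called fell from 5 to 3, and the genotypes overlapped (difference of 1088 bp, exact permutation p = 0.4). All these peaks were weak, with −log10 q between 2.45 and 8.66 and fold enrichments at percentiles 12.1 to 28.0 of their lists, other than 58.3 in KO replicate 1. Only the peaks of WT replicates 1 and 2 and KO replicate 1 lay over the 5′ end, and those of WT replicate 3 and KO replicate 2 began 12 and 59 bp after it.

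The second start region of TNFRSF19, with the CpG-rich sequence shown above, was called in 6 of 6 libraries. It was covered over 2936, 2964 and 1621 bp in the WT libraries and 1632, 1563 and 1433 bp in the KO libraries, with −log10 q from 54.7 to 131. There WT replicate 3 fell within the KO range, so that the lead of WT replicate 3 at the MANE Select start had no counterpart at the strongly marked start of the same gene.

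**Figure D3:**
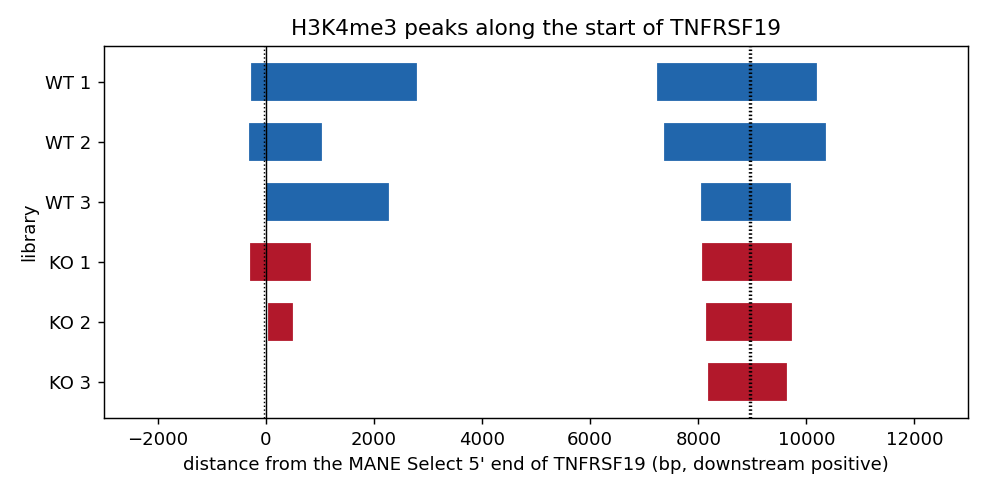
Peaks of the 6 libraries along TNFRSF19, by distance in bp from its MANE Select 5′ end (solid line), with other annotated starts as dotted lines, WT in blue and KO in red. Near the MANE Select start the peaks run from 3040 bp wide in WT replicate 1 to none in KO replicate 3, while the start 8948 bp downstream lies under a peak in all 6 libraries.

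TNFRSF14, TNFRSF9 and TNFRSF8 completed the TRAF-type receptors called in all libraries. TNFRSF14 (HVEM), the receptor for TNFSF14, was covered over 3219, 4736 and 1882 bp in the WT libraries and 1888, 1571 and 1586 bp in the KO libraries. WT replicate 3 lay 6 bp below KO replicate 1, so the genotypes overlapped. TNFRSF9, a co-stimulatory receptor of activated T cells, was covered over 2769, 3148 and 1844 bp and over 2128, 1701 and 1047 bp in the same order, and TNFRSF8 (CD30), of activated lymphocytes, over 1053, 1915 and 861 bp and over 1565, 1096 and 841 bp. Both overlapped between the genotypes. The TNFRSF9 peak of KO replicate 3 was weak, with a −log10 q of 2.06. With peaks of at least 3 on that scale TNFRSF9 was called in 5 libraries. TNFRSF9 and TNFRSF8 are best known from lymphocytes, yet TNFRSF8 had a peak over its 5′ end in 6 of 6 libraries of an osteosarcoma line in which no blood cell marker was called.

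TNFRSF1B, the second TNF receptor, was called in WT replicate 3 only, with a peak of 626 bp at a −log10 q of 3.31. It was 1 of the 2 members, with TNFRSF19, in which WT replicate 3 exceeded every KO library by at least 500 bp, as did 5.53% of the 14281 promoters covered in these lists. WT replicates 1 and 2 had no peak there, as in the KO libraries. A second start of TNFRSF1B, 24847 bp downstream, was called in 4 libraries, with 532 and 332 bp of coverage in WT replicates 2 and 3 and 1258 and 415 bp in KO replicates 1 and 3.

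TNFRSF13C, the BAFF receptor of B cells, was covered over 1466 bp in WT replicate 3 and 1054 bp in KO replicate 1, and over 0 bp in the other 4 libraries. The clones with a peak were again 1 of each genotype. The peak in WT replicate 3 ranked at percentile 76.5 of its list by fold enrichment, the highest of the members with calls in some libraries only.

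TNFRSF18 (GITR) was not called, since its nearest peak lay 1222 to 1561 bp upstream of the 5′ end, just outside the 1 kb window. That peak was found in all libraries, with 1349, 1473 and 1394 bp in the WT libraries and 1376, 1419 and 1136 bp in the KO libraries, and no annotated 5′ end lies inside it. TNFRSF4, 7561 bp from TNFRSF18, had its nearest peak 4649 to 4867 bp away. TNFRSF11A (RANK), TNFRSF13B and TNFRSF17, which serve osteoclasts and B lineage cells, had none within 9177 bp.

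To ask which signalling routes had both ends marked, 21 textbook pairs of ligand and receptor were counted. Both promoters were called for TNFSF9 with TNFRSF9 and for TNFSF12 with TNFRSF12A in 6 of 6 libraries, and for TNFSF13B with TNFRSF13C in KO replicate 1. For the other pairs no library had both. The TNFRSF9 call in KO replicate 3 rested on the weak peak with a −log10 q of 2.06. The receptor alone was called for 5, 5 and 6 pairs in the WT libraries and 5, 5 and 5 in the KO libraries, as for TNFSF10 with TNFRSF10B, TNFSF11 with TNFRSF11B and TNFSF14 with TNFRSF14. The ligand alone was called for 2, 7 and 0 pairs in WT and 2, 2 and 0 in KO. Pairs share genes and are not independent.

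Over the members, WT coverage exceeded KO coverage no more often than it did at all promoters. Of the 18 members with any coverage, 7 had every WT library above every KO library (TNFSF9, TNFSF12, TNFRSF1A, TNFRSF10B, TNFRSF21, TNFRSF11B and TNFRSF19), where 50.8% of 14422 covered promoters did, and 0 had every KO above every WT, where 0.111% did. The first count was 12 of 17 without WT replicate 3, where 90.9% of covered promoters did so, and 2 of 15 with peaks of at least 4-fold enrichment, where 31.7% did. No member passed a p of 0.05, adjusted or unadjusted. The exact permutation test cannot pass it with these numbers, and the smallest value after Benjamini-Hochberg adjustment over the 14422 promoters was 0.196. No member was called in all 3 WT and 0 KO libraries, as were 0.105% of all promoters. Calls per library averaged 3.33 ± 1.53 of 11 ligands in WT and 2.67 ± 0.577 in KO, and 9.67 ± 1.15 and 9 ± 1 of 21 receptors (SD, n = 3 each), with ranges that overlapped in both classes.

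To set aside the wider peaks of WT replicates 1 and 2, the covered length was also ranked as a percentile among the covered promoters of each list. By percentile no member had every WT library above every KO library (7.13% of covered promoters did). In 2 of 18, TNFRSF18 and TNFRSF12A, every KO was above every WT, which is near the general share of 10.7%. The TNFRSF18 coverage was the uncalled upstream peak, and WT replicate 3 and KO replicate 1 were close there, at percentiles 14.0 and 14.5. TNFRSF12A stood at percentiles 73.1, 69.4 and 70.3 in the WT libraries and at 90.0, 94.8 and 96.0 in the KO libraries. Its peaks also took in promoters of neighbouring genes, so these percentiles are not those of its promoter alone. Within the 4 lists of WT replicate 3 and the KO clones, WT replicate 3 exceeded every KO library in 10 of 18 members, beside 54.4% of covered promoters. It fell below every KO library in 1, TNFRSF12A, beside 2.53%. WT replicate 3 is 1 clone, and its median peak width of 1487 bp was still above the 1275 to 1388 bp of the KO lists, so widths were not matched. In these 4 lists the call numbers were 2 of 11 ligands in WT replicate 3 against 3, 3 and 2 in KO, and 11 of 21 receptors against 10, 9 and 8.

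**Figure D4:**
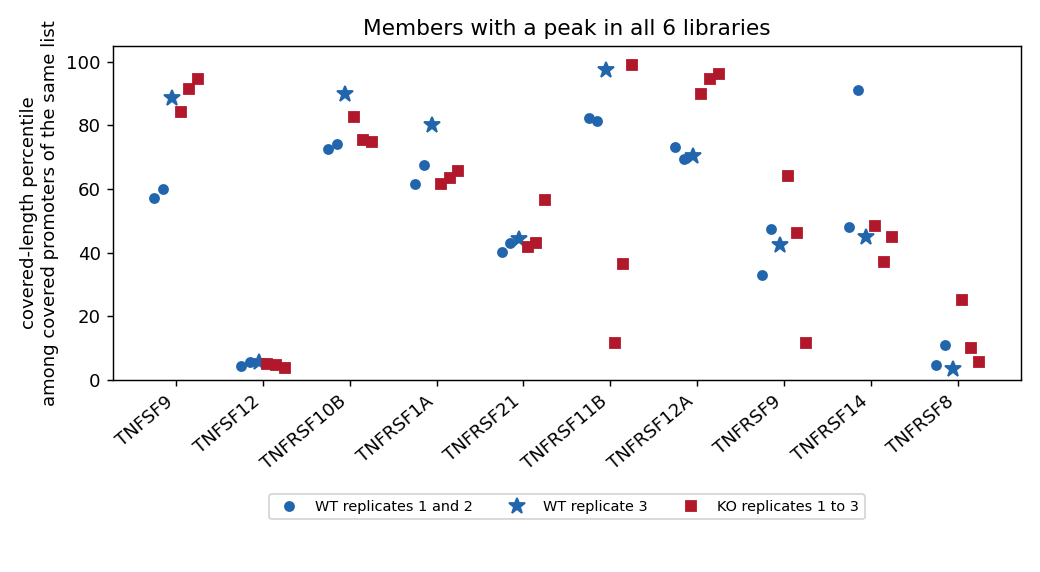
Covered-length percentile, among covered promoters of the same list, for the 10 members called in all 6 libraries. Blue circles are WT replicates 1 and 2, blue stars WT replicate 3 and red squares the KO replicates. TNFRSF12A is the 1 gene shown in which all KO points lie above all WT points, and TNFRSF11B has the widest spread among KO libraries, from 11.5 to 98.9.

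The 32 member promoters were poorer in CpG than others. In the 300 bp around the 5′ end the median was 12 CpG over the 32 members and 23 over all promoters. Ligands had a median of 7 and receptors of 15. Members called in 6 libraries had a median of 21.5, against 28 for all promoters called in 6, and members called in none had 12, against 5 for all uncalled promoters. Of the 11 members with at least 20 CpG, 6 (54.5%) were called in all libraries, beside 88.7% of all such promoters, and of the 21 with fewer, 4 (19.0%) were, beside 32.0%.

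Some members departed from this relation in each direction. TNFRSF11A with 37 CpG, TNFRSF25 with 31 and TNFRSF18 with 23 had no call, and TNFRSF1A with 4 and TNFRSF9 with 8 were called in all libraries. Between these, TNFSF9, TNFSF12 and TNFRSF12A, with 27, 36 and 38 CpG, were called in every library.

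**Figure D5:**
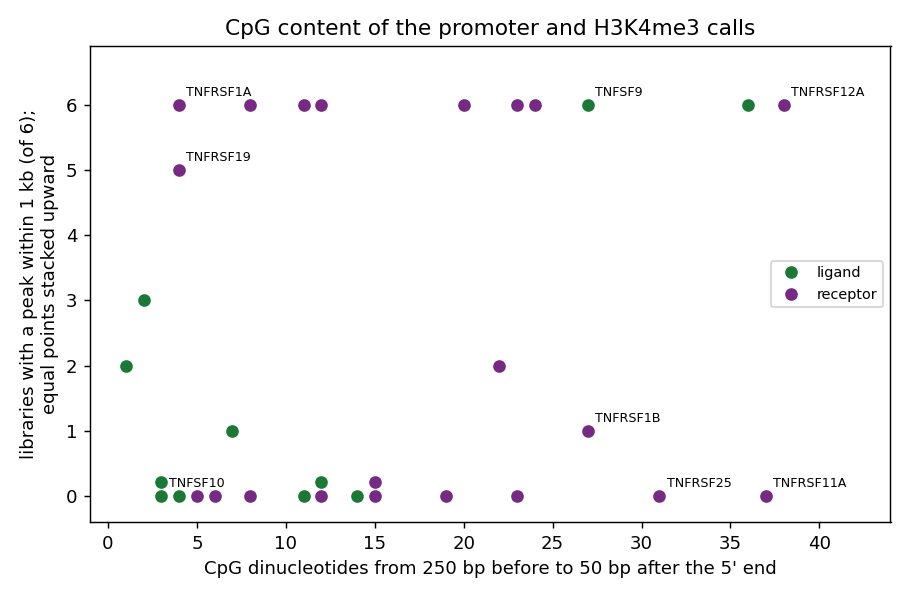
Number of libraries with a peak within 1 kb (of 6) against the number of CpG in the 300 bp around the 5′ end, for 11 ligand (green) and 21 receptor (purple) promoters. Of the 21 members with fewer than 20 CpG, 13 are at 0 and 4 at 6, TNFRSF1A among them with 4 CpG, while TNFRSF11A and TNFRSF25 are at 0 with 37 and 31 CpG.

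The same 300 bp were searched on both strands for motifs of transcription factors that IFNγ or TNF are known to act through, and for the telomere repeat unit that ZBTB48 binds. The core of the interferon-stimulated response element, searched as a pair of GAAA units separated by 2 bases, was present in 6 of 32 members (TNFRSF1B, TNFRSF17, TNFSF9, TNFSF10, TNFSF13B and TNFSF14), or 18.75%, and in 3.28% of all promoters. The gamma-activated site TTCNNNGAA was present in TNFRSF9 alone (3.13%, beside 6.49% of all promoters). The NF-κB consensus was present in 8 members (25%, beside 12.6%), and the telomere repeat unit TTAGGG in 0 (8.54% of all promoters). The CIITA promoter site crystallised with ZBTB48 in the study is read through a GGG triplet and lacks TTAGGG. The absence of TTAGGG here therefore does not show that ZBTB48 sites are absent. Of the 6 promoters with the response element core, 1 (TNFSF9) was called in all libraries. TNFSF13B was called in 2 libraries and TNFRSF1B in 1, while TNFSF10, TNFSF14 and TNFRSF17 were called in none.

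Genes of the superfamily with other names, and the proteins that act below the receptors, were counted by the same rule. Of 7 other ligands, LTB, CD70 and EDA were called in all 6 libraries and TNF, LTA, CD40LG and FASLG in none. Of 8 other receptors, 6 were called in all libraries (CD40, FAS, LTBR, NGFR, EDA2R and RELT), EDAR was called in 4 (all 3 WT and KO replicate 1) and CD27 in none. Of 23 receptor-proximal adaptors, kinases and caspases, 19 were called in all libraries, with TRAF1, CASP8 and CASP10 called in 2 each and RIPK3 in none. All 18 NF-κB pathway genes were called in 6 of 6 libraries. Beside these counts, 65.1% of all protein-coding promoters were called in all 6 libraries, and 88.7% of those with at least 20 CpG. The NF-κB pathway genes all had at least 20 CpG other than RNF31, with 18, so their calls were not read as particular to the pathway. CASP8, the initiator caspase of death receptors, was called only in WT replicates 1 and 2, but its 3 kb window held 1699 to 2672 bp of coverage in every library. In the libraries without a call that coverage lay more than 1 kb from the start.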

How the data were processed

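H3K4me3 ChIP-seq of 3 WT and 3 ZBTB48 KO clones of U2OS cells treated with IFNγ was analysed from peak lists. The 2 WT input samples were not used here. Per the study's methods and the submitters' processing notes, the authors used Trimmomatic for trimming and Bowtie2 (2.3.5.1) for alignment to GRCh38, discarded unmapped, multi-mapping and duplicate reads, and called broad peaks in each library with MACS2 (2.1.1.2). Whether an input entered each call is not given in the sources used here. Each deposited peak has a score (a display value, not used here), a fold enrichment ratio, and −log10 p and −log10 q values, which in the deposited lists are averaged over the peak. The deposited fold and −log10 values served to rank or filter peaks within a list, and the median fold of each list to describe how the lists differ. No counts are given, so the authors' read-level comparison was not repeated.

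Peaks of the autosomes and sex chromosomes were set against GENCODE 44 (MANE Select 5′ ends). The software was Python 3.11.15, numpy 2.4.6, scipy 1.17.1 and matplotlib 3.10.9. A call needed at least 1 bp of overlap. Covered length was compared with a two-sided exact permutation test (20 ways to assign 3 of 6 libraries to WT), adjusted by the Benjamini-Hochberg method over all covered promoters. The counting and the test were tested on simulated lists. Members, gene lists and tests were chosen with earlier results of these data known. Values in all libraries are given for members called in 1 to 5 libraries, members where WT replicate 3 and the KO libraries were at least 500 bp apart, and the ligands and receptors with the longest median coverage. Other members with values were chosen after their values were seen. The alternatives were other peak thresholds, equal peak numbers, other windows and overlaps, any annotated 5′ end, WT replicate 3 against KO, the replicate number as a block, and each library left out in turn.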

Additional observations from a re-analysis of the deposited data

How the results depend on the processing

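The excess of the receptor share over the ligand share had the same direction under every alternative run. With peaks of at least 4-fold enrichment, 2 members instead of 7 had WT above KO without overlap, 0.667 instead of 2.17 pairs per library had both promoters called, and 27.8 instead of 38 promoters of the signalling lists were called. At that threshold 1 ligand instead of 2, 2 receptors instead of 8 and 7294 instead of 13036 of all promoters were called in 6 libraries. The threshold filtered the lists unequally, since the median fold was 4.19 to 4.65 in WT replicate 3 and the KO lists but 13.4 and 14.0 in WT replicates 1 and 2. Calls over all promoters were 7841 to 10419 in the former lists and 13271 and 13278 in the latter. WT exceeded KO without overlap at 31.7% of covered promoters, instead of 50.8%. With the windows exchanged, 4 members had WT above KO (38.7% of covered promoters). With any annotated 5′ end, 2 members had WT above KO by percentile (7.07% of covered promoters), and the difference for TNFRSF1B turned to −172 bp.

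With WT replicate 3 against KO, the ligand difference turned to −0.667 calls, the receptor difference rose from 0.667 to 2 calls, 7 of 18 members were above every KO library by percentile, as were 23.8% of covered promoters, and the covered-length differences turned to −653 bp for TNFRSF12A, −306 bp for TNFRSF8, −215 bp for TNFSF13B and −84.3 bp for TNFSF15. Leaving out 1 library at a time, the ligand difference ranged from −0.167 (without WT replicate 2) to 1.33 calls. The receptor difference ranged from 0 (without WT replicate 3) to 1.17 calls (without KO replicate 1), and was 0.167 without KO replicate 3. The members with WT above KO ranged from 7 to 12, beside 51.5% to 90.9% of covered promoters. The count was 12 of 17 without WT replicate 3, beside 90.9%, and 10 of 18 without KO replicate 1, beside 80.2%. By percentile the members with WT above KO ranged from 0 to 2, beside 9.67% to 20.7% of covered promoters. The difference ranged from −210 to 317 bp for TNFRSF8, from −215 to 221 bp for TNFSF13B and from −351 to 489 bp for TNFRSF13C, each of which changed sign.

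The replicate numbers were not taken to pair the clones. Deviations of same-numbered WT and KO libraries from their group means correlated at −0.0095, 0.017 and 0.093, and those of other combinations at −0.118 to 0.0787. With 3 libraries per genotype these values cannot decide whether the numbers pair clones. With the replicate block 0 members passed, and the smallest p that 3 pairs allow is 0.25.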
